A study of Sus scrofa with 4 samples.

Results

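The genes described are those that make, break down and bind hyaluronan, followed in fibroblasts grown from deep and shallow skin wounds of pigs. The 10 genes listed were HAS1, HAS2, HAS3, HYAL1, HYAL2, TMEM2, CD44, TNFAIP6, VCAN and HMMR2, and a gene was taken up where the annotation of the porcine Affymetrix array gave a probeset that symbol alone. This held for 6 genes, HAS3, HYAL1, HYAL2, TMEM2, TNFAIP6 and VCAN, with 10 probesets among the 10069 probesets of 6765 genes named in this way. HAS1, HAS2, CD44 and HMMR2 were not matched and are not analysed here. The annotation does name a probeset for HMMR, which is given with the other hyaluronan receptors. Each gene is represented by its brightest probeset, that with the highest mean log2 signal over the arrays.

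The groups were 2 cultures from deep wounds and 2 from shallow wounds, made on the backs of 2 Duroc pigs and biopsied 20 weeks later, with 1 array per culture. Each pig gave 1 deep and 1 shallow culture. The animals are called pig 1 and pig 2, and where a pair of values is given for a depth, that of pig 1 stands first. The cells were dermal fibroblasts harvested when confluent in medium with fetal bovine serum, and no culture from unwounded skin was analysed here. The comparison asks what wound depth changes in fibroblasts of one animal.

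Hyaluronan is a long unsulfated sugar chain of the skin's matrix. Synthases of the HAS family assemble it at the plasma membrane from UDP-glucuronic acid and UDP-N-acetylglucosamine and push it out of the cell as it grows. Hyaluronidases cut it at the cell surface and in lysosomes, where exoglycosidases finish its breakdown. Outside the cell it is held by the receptor CD44, by proteoglycans such as versican and by proteins that cross-link it, and fibroblasts are a main source of it in the dermis.

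Signals are MAS5 intensities on a linear scale, and differences are deep minus shallow on the log2 scale. A signal was set against the highest of 23 probesets whose targets are not pig transcripts, here called the absent-transcript controls. That control read 21.8 and 30.9 on the deep arrays, and 14.8 and 13.6 on the shallow arrays. The number of arrays limits the precision, since 2 arrays against 2 cannot give a two-sided exact permutation p below 0.333.

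All 12 measured fibroblast markers, of 14 listed, lay above the absent-transcript controls on each array. Both deep arrays were above both shallow arrays for all 12 markers, against 23.2% of all tested probesets. Their summed signal was 65363 and 90580 on the deep arrays, against 37904 and 46651 on the shallow arrays. The pig 1 shallow array stood apart in its epithelial markers, where all 11 measured of 20 listed were above the controls and highest there. Their summed signal was 364 and 214 on the deep arrays, against 6226 and 271 on the shallow arrays. The signal ratio of actin probes at the 3' end to those at the 5' end, which depends on RNA integrity and labelling, was 3.28 and 6.10 on the deep arrays and 1.96 and 2.41 on the shallow arrays.

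**Figure D1:**
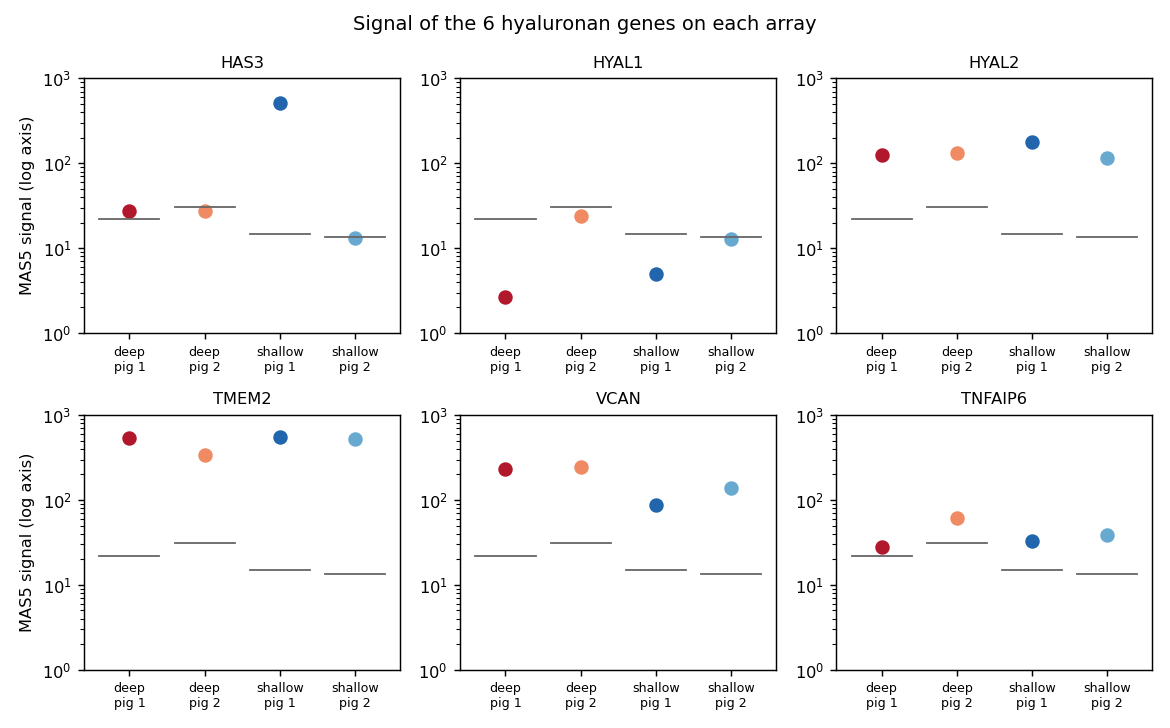
MAS5 signal of the 6 measured hyaluronan genes (log axis) on the deep and shallow arrays of pig 1 and pig 2, 1 point per array, with a grey line at each array's highest absent-transcript control. HAS3 is far above the control on the pig 1 shallow array alone, HYAL1 is below it on all 4 arrays, and both deep points of VCAN lie above both shallow points.

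No hyaluronan gene passed an adjusted p of 0.05 for wound depth. VCAN was 2.19-fold higher in deep cultures, and higher in both pigs. HAS3 was bright in a single culture, the shallow one of pig 1. HYAL2, TMEM2 and TNFAIP6 had overlapping groups, and HYAL1 was not above the absent-transcript controls on any array. In the limma fit with the pig as block, 0 of the 5 members that passed the filter on dim probesets were called in either direction, where 0.34% of all 14399 tested probesets were called. At an unadjusted p under 0.05 there was 1 member, VCAN, and 1995 of all probesets, or 13.9%. The median difference was -0.16 over the 5 tested members and -0.02 over all tested probesets.

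**Figure D2:**
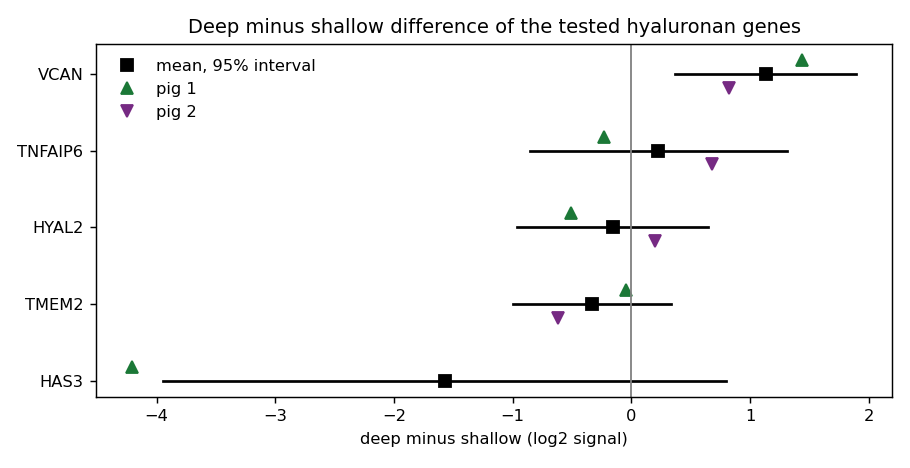
Deep minus shallow difference in log2 signal for the 5 tested members, as the mean with its 95% interval (squares and bars, n = 2 pigs) and in each pig (triangles, left out where both values of a pig are below the absent-transcript controls, as for HAS3 in pig 2). The interval of VCAN lies above 0, from 0.37 to 1.90, and the HAS3 interval, from -3.94 to 0.79, is the widest of the 5.

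Among the synthases only HAS3 could be read. HAS3, one of the enzymes that spin the hyaluronan chain, had a signal of 27.8 and 27.7 on the deep arrays, against 512 and 13.3 on the shallow arrays. The pig 1 shallow array was the single bright one, and the other shallow array was the lowest of the 4, so the groups overlapped. Signals on the pig 2 deep array and the pig 2 shallow array lay below the absent-transcript controls, which leaves no fold for that pig. In pig 1 the difference was -4.20. The fitted mean over both pigs, which includes the pig 2 values below the controls, was -1.57 ± 1.02 (SE, n = 2 pigs), with a 95% interval of -3.94 to 0.79 (limma, adjusted p = 0.548).

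The size and sign of the HAS3 difference were set by that array. Without the pig 1 shallow array the difference was 1.06, between arrays that are near or below the controls. Without the pig 2 shallow array it was -4.21, with the bright array as the lone shallow one. Epithelial markers were, like HAS3, highest on the pig 1 shallow array, as were all 15 measured proliferation markers. The brightest epithelial markers were KRT8, a keratin of simple epithelia, CLDN4, a tight junction protein, and SFN, the epithelial protein stratifin. KRT8 read 196 and 95.1 on the deep arrays, against 660 and 132 on the shallow arrays. Its other probeset read 12.2 and 8.84 on the deep arrays, against 1599 and 13.6 on the shallow arrays. That probeset was above the controls on the pig 1 shallow array alone. SFN had 23.1 and 6.81 on the deep arrays, against 1486 and 37.0 on the shallow arrays, and CLDN4 had 41.6 and 38.4 on the deep arrays, against 258 and 36.6 on the shallow arrays. Of the 11 epithelial markers 5 and 2 were above the controls on the deep arrays, and 4 on the pig 2 shallow array. Their part in the HAS3 signal was not tested. Fewer cells of a type and less RNA per cell cannot be told apart in such bulk RNA.

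Over the 4 arrays the named genes with the pattern most like that of HAS3, among 5271 others past the filter, were RLN2, MAL and FST. Likeness was the Euclidean distance between log2 profiles centred on their means, which was 0.67 for RLN2, the hormone relaxin, 0.72 for MAL, a membrane proteolipid, and 0.83 for FST, the activin antagonist follistatin. RLN2 read 136 and 89.1 on the deep arrays, against 1369 and 39.0 on the shallow arrays. MAL read 31.4 and 24.4 on the deep arrays, against 339 and 16.8 on the shallow arrays. Since likeness was measured on these arrays, the high array they share with HAS3 follows from the choice, and both pig 2 values of HAS3 that entered it are below the controls.

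**Figure D3:**
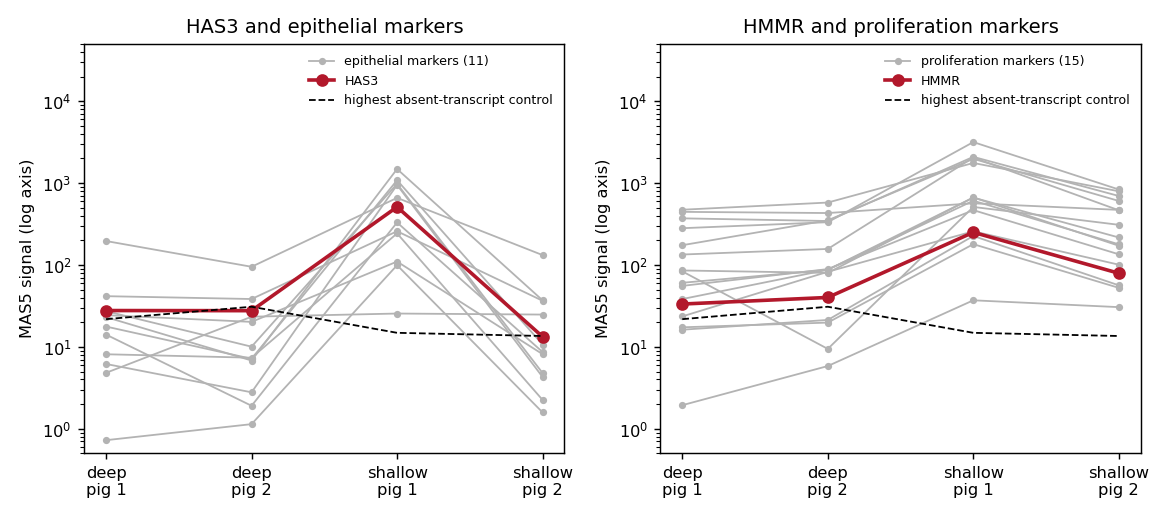
MAS5 signal (log axis) of HAS3 with the 11 measured epithelial markers (left) and of HMMR with the 15 measured proliferation markers (right) on each array. Red marks the hyaluronan gene, grey the markers and the dashed line the highest absent-transcript control; HAS3 and all 11 epithelial markers peak on the pig 1 shallow array, as do HMMR and all 15 proliferation markers.

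Of the genes that cut hyaluronan, HYAL1 and HYAL2 are neighbours in the pig gene table of Sscrofa11.1. HYAL1, the lysosomal hyaluronidase, read 2.65 and 24.2 on the deep arrays, against 5.02 and 12.9 on the shallow arrays. All 4 values were below the absent-transcript control of their array, so no level or fold can be given for it. HYAL1 was the member that did not pass the filter, and it was not tested.

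HYAL2, the hyaluronidase anchored to the cell surface, was above the controls on all 4 arrays. Its signal was 124 and 134 on the deep arrays, against 177 and 117 on the shallow arrays. The deep values lay between the shallow ones, so the groups overlapped. The difference was -0.51 in pig 1 and 0.20 in pig 2, with a mean of -0.16 ± 0.35 (SE, n = 2 pigs) and a 95% interval of -0.96 to 0.64 (limma, adjusted p = 0.883).

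TMEM2, a membrane protein described in the mouse as a cell-surface hyaluronidase, was well above the controls everywhere. It read 539 and 343 on the deep arrays, against 555 and 525 on the shallow arrays. The pig 2 deep array was the low one, and the other 3 were close together. Its difference was -0.04 in pig 1 and -0.62 in pig 2, with a mean of -0.33 ± 0.29 (SE, n = 2 pigs) and a 95% interval of -0.999 to 0.338 (limma, adjusted p = 0.676). It was -0.0043 without the pig 2 deep array and -0.66 without the pig 1 deep array. With the actin ratio as covariate in place of the block the TMEM2 difference was 0.38 (limma, adjusted p = 0.9999). That ratio was higher on both deep arrays, so it cannot be told apart from depth, and its part was not tested.

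The clearest difference among the members was in VCAN, versican, the large chondroitin sulfate proteoglycan that holds hyaluronan through its amino-terminal domain. VCAN read 235 and 247 on the deep arrays, against 86.8 and 139 on the shallow arrays, or 241 ± 8.53 in deep and 113 ± 37.0 in shallow (SD, n = 2 each). Both deep arrays were above both shallow arrays, as was the case for 23.2% of all tested probesets. VCAN was 2.71-fold higher in deep in pig 1 and 1.77-fold higher in pig 2. The mean difference was 1.13 ± 0.33 (SE, n = 2 pigs), with a 95% interval of 0.37 to 1.90 (limma, adjusted p = 0.191).

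The 5 VCAN probesets allow the difference to be read more than once on the same RNA. A second probeset read 83.1 and 66.4 on the deep arrays, against 37.7 and 45.7 on the shallow arrays, all above the controls, and differed by 0.84 ± 0.41 (SE, n = 2 pigs; limma, adjusted p = 0.423). One more, which did not pass the filter, read 31.7 and 29.8 on the deep arrays, against 11.5 and 18.6 on the shallow arrays. Of these last values the pig 2 deep one and the pig 1 shallow one were below the absent-transcript controls, so no fold is given. Both deep arrays were above both shallow arrays in the 2 probesets that passed the filter. The remaining 2 were below the absent-transcript controls on all 4 arrays and carry no level. Probesets of 1 gene share their RNA and are not replicates, and which versican transcripts each of them reads was not examined.

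**Figure D4:**
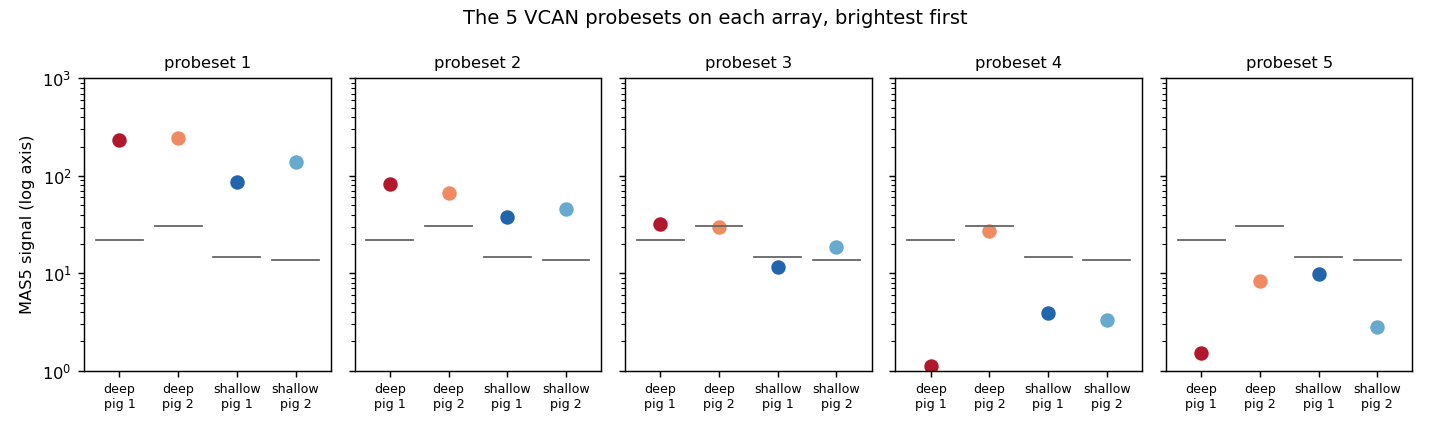
MAS5 signal (log axis) of the 5 VCAN probesets, ordered by brightness, on the deep and shallow arrays of pig 1 and pig 2, with a grey line at each array's highest absent-transcript control. In the 2 brightest the deep points are above the shallow points and all 4 are above the control line, the next has 2 points below that line, and the other 2 probesets lie below the control line on all 4 arrays.

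The VCAN difference kept its sign without any single array, at 0.79 to 1.47. It was 0.79 without the pig 1 shallow array and 1.47 without the pig 2 one, each with a lone shallow array. With the actin ratio as covariate in place of the block it was 0.82, and under quantile normalization it was 1.20. Of the smooth muscle and pericyte markers, 4 of 9 listed passed the filter. Of these 4, 1 passed the threshold, against 0.34% of all tested probesets. In 2 of the 4 each deep signal exceeded each shallow one, against 23.2% of all tested probesets. The gene called was ACTG2, a smooth muscle actin, with 4269 and 2914 on the deep arrays, against 492 and 717 on the shallow arrays (limma, adjusted p = 0.0351), while its other probeset had overlapping groups. ACTG2 made up most of the summed signal of the 5 measured markers, which was 4696 and 3410 on the deep arrays, against 654 and 1148 on the shallow arrays. RGS5, a pericyte gene, read 187 and 218 on the deep arrays, against 50.7 and 336 on the shallow arrays. CNN1, a smooth muscle gene, read 193 and 154 on the deep arrays, against 79.3 and 62.2 on the shallow arrays (limma, adjusted p = 0.155). The fibroblast sums given above were higher on both deep arrays. The part of these markers in the VCAN difference was not tested. Endothelial markers summed to 366 and 489 on the deep arrays, against 780 and 303 on the shallow arrays (9 of 10 listed), and leukocyte markers to 133 and 157 on the deep arrays, against 288 and 130 on the shallow arrays (9 of 12 listed).

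TNFAIP6, known as TSG-6, is a secreted protein that moves the heavy chains of inter-alpha-inhibitor onto hyaluronan. It was dim but above the controls on all 4 arrays, with 27.8 and 61.8 on the deep arrays, against 32.5 and 38.4 on the shallow arrays. The 2 deep values were the lowest and the highest of the 4, so the groups overlapped. Its difference was -0.23 in pig 1 and 0.68 in pig 2, with a mean of 0.23 ± 0.47 (SE, n = 2 pigs) and a 95% interval of -0.86 to 1.31 (limma, adjusted p = 0.873). Leaving out the pig 2 deep array gave -0.35, and with the actin ratio as covariate -1.07.

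A wider list of 53 gene symbols of hyaluronan supply, breakdown and binding was set beside the members. Of these 33 were named on the array, 22 passed the filter and 0 passed the threshold in either direction (limma, against 0.34% of all probesets). At an unadjusted p under 0.05 there were 3 of the 22, HEXA, FBLN1 and HMMR, a share close to the 13.9% of all tested probesets. Both deep arrays were above both shallow arrays for 5 of the 22, against 23.2% of all probesets, and below them for 8, against 25.5%. Over all 5272 tested named genes, likewise by their brightest probeset, these shares were 23.7% and 28.4%. The median difference of the 22 genes was -0.14, against -0.02 over all probesets.

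Enzymes that supply the UDP-sugars were above the controls on all 4 arrays in all 8 measured genes. Of these 8, 0 passed the threshold, against 0.34% of all tested probesets. Their median difference was -0.25. The 4 with the largest differences were GNPNAT1 (-0.47 ± 0.28), GFPT1 (-0.44 ± 0.28), UGP2 (-0.43 ± 0.27) and PGM3 (-0.35 ± 0.26, SE, n = 2 pigs each). GFPT1, GNPNAT1 and PGM3 act in the hexosamine pathway to UDP-N-acetylglucosamine, and UGP2 makes UDP-glucose, from which UDP-glucuronic acid is formed. GNPNAT1 read 944 and 1008 on the deep arrays, against 1620 and 1133 on the shallow arrays. GFPT1 read 340 and 280 on the deep arrays, against 409 and 429 on the shallow arrays. In both genes, as in PGM3, the deep arrays lay below the shallow arrays, while the UGP2 groups overlapped. Both deep arrays were thus below both shallow arrays for 3 of the 8, against 25.5% of all tested probesets. They were above them for 1 of the 8, against 23.2%. Without the pig 1 shallow array the difference was -0.22 for GNPNAT1, -0.17 for PGM3 and 0.060 for UGP2. With the probesets of a gene averaged it was -0.82 for GNPNAT1 and -1.29 for GFPT1, whose dimmest probeset was below the controls on both deep arrays.

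**Figure D5:**
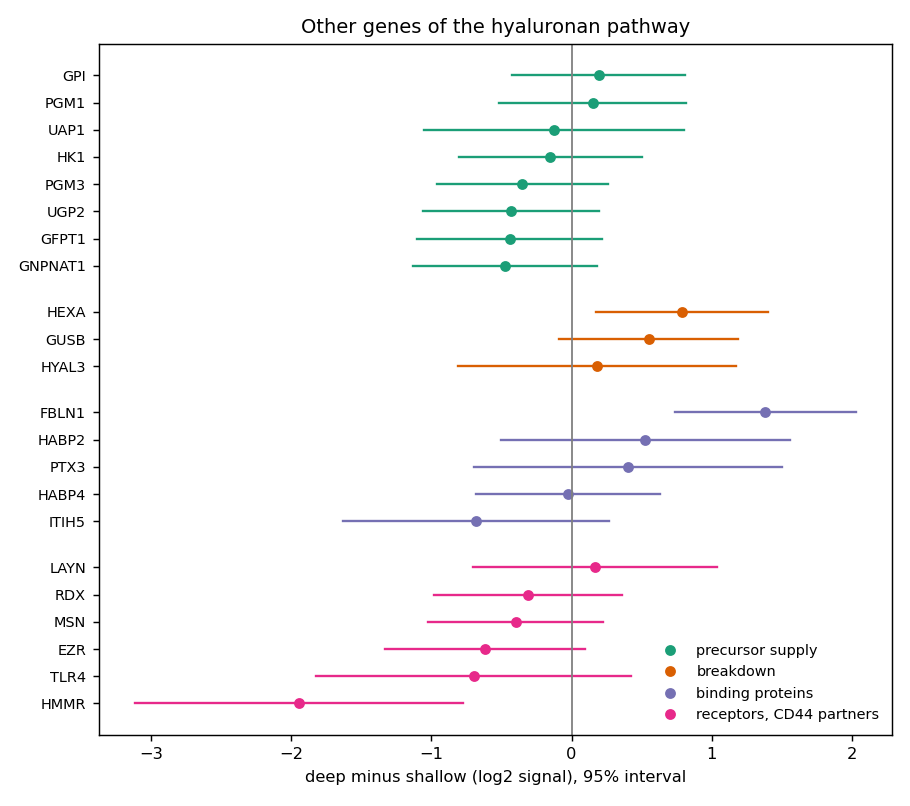
Deep minus shallow difference in log2 signal with its 95% interval (n = 2 pigs) for the 22 tested genes of the wider hyaluronan list, by role. The intervals of HEXA and FBLN1 lie above 0 and that of HMMR below it, and 0 of the 22 passed an adjusted p of 0.05.

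By their brightest probesets, the 2 lysosomal exoglycosidases measured read higher on both deep arrays, as did 23.2% of all tested probesets. HEXA, the alpha subunit of beta-hexosaminidase, read 1664 and 1789 on the deep arrays, against 884 and 1126 on the shallow arrays. Its difference was 0.79 ± 0.27 (SE, n = 2 pigs; limma, adjusted p = 0.245), and both pigs had the same sign. Without the pig 2 shallow array it was 0.96, with a lone shallow array left. GUSB, beta-glucuronidase, read 2142 and 2181 on the deep arrays, against 1250 and 1743 on the shallow arrays, a difference of 0.55 ± 0.28 (SE, n = 2 pigs; limma, adjusted p = 0.434). It was 0.31 without the pig 1 shallow array and 0.35 with probesets averaged. The other GUSB probeset read 75.7 and 48.5 on the deep arrays, against 49.8 and 60.6 on the shallow arrays, so its groups overlapped. HYAL3, a further gene of the hyaluronidase family, was dim, with 47.2 and 41.4 on the deep arrays and 42.1 and 36.0 on the shallow arrays. SPAM1, the sperm hyaluronidase, was above the controls on the pig 2 deep array alone, at 38.6.

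Among proteins that bind hyaluronan or its proteoglycans, the largest tested difference was in FBLN1, fibulin-1, a matrix glycoprotein that binds proteoglycans of the versican family. FBLN1 read 872 and 1162 on the deep arrays, against 281 and 528 on the shallow arrays. Both deep values were above both shallow values, as in 23.2% of all tested probesets, with a mean fold of 2.61. The difference was 1.38 ± 0.28 (SE, n = 2 pigs), with a 95% interval of 0.74 to 2.03 (limma, adjusted p = 0.0894). Without the pig 2 shallow array it was 1.84, without the pig 1 one it was 0.93, and with the actin ratio as covariate it was 0.63.

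The heavy chains that TNFAIP6 transfers are encoded by genes of the ITIH family. Of that family, ITIH1 and ITIH3 were below the controls on all 4 arrays. ITIH4, which did not pass the filter, read 13.4 and 64.5 on the deep arrays, against 25.4 and 17.5 on the shallow arrays. Its pig 1 deep value alone was below the control of its array. ITIH5 read 45.5 and 35.0 on the deep arrays, against 66.5 and 61.8 on the shallow arrays, a difference of -0.68 ± 0.41 (SE, n = 2 pigs; limma, adjusted p = 0.510). ITIH2 was below the controls on both deep arrays, at 9.66 and 3.68, and just above them on the shallow arrays, at 15.3 and 17.5, which gives no fold. HABP2, a plasma protease that binds hyaluronan, differed by 0.53 ± 0.45 (SE, n = 2 pigs; limma, adjusted p = 0.663). It was 0.034 without the pig 2 deep array and 1.02 without the pig 1 deep array. Of the 12 binding proteins on the array 7 did not pass the filter, the cartilage genes ACAN and HAPLN1 among them.

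The receptor HMMR, which binds hyaluronan at the cell surface and also acts at the mitotic spindle, was lower on both deep arrays. It read 33.4 and 40.1 on the deep arrays, against 251 and 79.3 on the shallow arrays. Both deep arrays were thus below both shallow arrays, as was the case for 25.5% of all tested probesets. The pig 1 shallow array was the highest. The difference was -2.91 in pig 1 and -0.98 in pig 2, with a mean of -1.95 ± 0.51 (SE, n = 2 pigs) and a 95% interval of -3.12 to -0.77 (limma, adjusted p = 0.155). It was -1.12 without the pig 1 shallow array. Without the pig 2 shallow array it was -2.78, with a lone shallow array left.

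Proliferation markers moved with HMMR. Their summed signal over 15 measured of 24 listed genes was 2263 and 2678 on the deep arrays, against 15243 and 5122 on the shallow arrays. All 15 were highest on the pig 1 shallow array. In all 14 tested markers both deep arrays were below both shallow arrays, against 25.5% of all tested probesets. Of these 14, 1 passed the threshold, against 0.34% of all tested probesets. That gene, CENPF, read 83.6 and 9.45 on the deep arrays, against 511 and 310 on the shallow arrays (limma, adjusted p = 0.0453). Its pig 2 deep value was below the control of its array. The genes most like HMMR over the 4 arrays were VRK1 (distance 0.10), a kinase, DLGAP5 (0.23), a spindle protein, and PTTG1 (0.24), which encodes securin. VRK1 read 45.6 and 53.9 on the deep arrays, against 343 and 99.2 on the shallow arrays. The part of cell division in the HMMR signal was not tested.

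Other receptors and the proteins that link CD44 to actin gave 0 calls among 6 tested genes, HMMR included, against 0.34% of all tested probesets. Both deep arrays were below both shallow arrays for 4 of the 6, HMMR, TLR4, RDX and MSN, against 25.5% of all tested probesets. They were above them for 1 of the 6, against 23.2%. The median difference of the 6 was -0.51. EZR, ezrin, one of the CD44 linkers, read 1454 and 1157 on the deep arrays, against 3058 and 1300 on the shallow arrays. The pig 1 shallow array was again the highest for EZR. The EZR difference was -0.62 ± 0.31 (SE, n = 2 pigs; limma, adjusted p = 0.429), and it was -0.0031 without the pig 1 shallow array. Without the pig 2 shallow array it was -1.24. TLR4, a receptor that hyaluronan fragments are reported to engage, read 34.9 and 17.2 on the deep arrays, against 43.1 and 36.6 on the shallow arrays, and the pig 2 deep value was below the control of its array. Its difference was -0.70 ± 0.49 (SE, n = 2 pigs; limma, adjusted p = 0.573). It was -0.27 with signals raised to the controls and -0.19 without the pig 2 deep array. TLR2, another such receptor, did not pass the filter. It read 34.1 and 28.8 on the deep arrays, against 2.56 and 2.00 on the shallow arrays, where both values were below the controls. The pig 2 deep value was below the control of its own array as well, so no fold is given.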

How the data were processed

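Total RNA of 4 fibroblast cultures was hybridized to 1 array each. The table deposited by the authors holds MAS5 signal intensities on a linear scale, for which the submitters' processing notes name the MAS5 algorithm and GCOS 1.0; its trimmed mean was 250.1 on each array. The scaling target is not given in the sources used here, nor are detection calls. Tests left out 124 control probesets, signals under 1 were set to 1 and taken to log2, and 14399 of 23999 probesets were kept, those whose mean reached the 40th percentile, equal to a signal of 27.1. The depth effect was fitted in limma 3.58.1 (R 4.3.3; lmFit, then eBayes with the trend option) with pig as a blocking term, and p-values were adjusted by Benjamini-Hochberg over all kept probesets.

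The pairing comes from the design text, and the titles give each culture's partner by a sample number read here in the order listed. Once the depth means were subtracted, the correlation between arrays of one pig was -0.01. P-values refer to these cultures, but do not rest on their spread alone. The blocked fit left 1 residual degree of freedom per probeset. The eBayes step added a variance estimated over the kept probesets, with a median of 6.88 prior degrees of freedom. The standard errors, intervals and p-values given therefore rest mainly on that shared variance. They are not the spread between the pigs for the gene named. The members and lists were chosen with earlier results of these data known. The named genes were all matched members. Of each pathway list up to 4 genes with the largest difference were named, among those above the controls on at least 1 array. Named too were the 3 genes most like HAS3 and HMMR (which stands in for HMMR2), the brightest epithelial and smooth muscle markers, and each marker called. No sequence of these genes was used here. Alternatives are given in the closing section.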

Additional observations from a re-analysis of the deposited data

How the results depend on the processing

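The count of called members, 0 in each direction, was the same under the 10 alternatives that kept all arrays, as was that of the wider list. Leaving out 1 array gave 0 to 1 members higher, 0 to 1 lower, 0 to 4 genes of the wider list and 0 to 1597 probesets called, and these fits have no block and leave a depth with a single array. The calls of members and listed genes came without the shallow array of pig 2. The 49 called probesets became 0 without the replicate block, 202 with the pigs of the deep arrays crossed in the block, 0 with no filter, 96 under quantile normalization, 3 without the variance trend, 0 with the actin ratio as covariate and no block, and 20 with the probesets of a gene averaged. Besides the probeset counts, the block changed no call. Changing the block, the filter or the variance trend cannot alter a difference, only its p-value. For genes without a test the no-filter fit was the only alternative, and it cannot move their value. Of 182 alternative single-gene values with all arrays, these included, 174 kept their sign and call, or their value where there was no test. The other 8 turned sign with the actin ratio as covariate, to 0.27 for HAS3, -1.07 for TNFAIP6, 0.38 for TMEM2, 0.53 for UGP2, 0.086 for PGM3, -0.67 for HABP2, 0.46 for TLR4 and 0.16 for EZR; the cause was not tested. Without 1 array, HAS3 ranged from -4.21 to 1.06, HYAL2 from -0.46 to 0.14, TNFAIP6 from -0.35 to 0.80 and UGP2 from -0.93 to 0.060. With probesets averaged, VCAN and TLR4 fell under the filter and gave no value. Among the genes followed, signals below the absent-transcript controls limit HAS3, HYAL1, SPAM1, ITIH2, TLR2 and TLR4. Others were above the controls but near them on a deep array, HMMR and TNFAIP6 among them.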
